A study of Mus musculus with 6 samples.

Results

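The mitochondrial respiratory chain genes carried by the nuclear genome were compared between the brains of adult Bahd1-WT and Bahd1-KO mice. Members were taken by gene name from the deposited count table: names starting with Nduf followed by a, b, c, s or v, the Sdha, Sdhb, Sdhc and Sdhd genes, and names starting with Uqcr, with Cox and a digit from 4 to 8, or with Atp5. Names marked as pseudogenes were left out, which removed 8. The rule found 92 of the 53801 genes of the table, all annotated as protein-coding and spread over 19 chromosomes. They comprise 7 core subunits, 29 accessory subunits and 8 assembly factors of complex I, 4 subunits of complex II, 8 of complex III, 20 of complex IV and 16 of complex V. The rule reads names only, although it was written with earlier results of these data known.

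The respiratory chain sits in the inner mitochondrial membrane. Complex I (NADH dehydrogenase) and complex II (succinate dehydrogenase) pass electrons to ubiquinone, complex III passes them from ubiquinol to cytochrome c, and complex IV (cytochrome c oxidase) passes them to oxygen. The proton gradient that this builds is used by complex V, the ATP synthase, and neurons draw most of their ATP from this route. All of these enzymes but complex II also hold subunits encoded by mitochondrial DNA, so their assembly needs transcripts from both genomes.

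The study asked what loss of Bahd1, which encodes a heterochromatin factor found with histone deacetylases, does to gene expression in the brain. RNA-seq was made from polyadenylated RNA of a single hemisphere from each of 3 Bahd1-WT (Bahd1+/+) and 3 Bahd1-KO (Bahd1-/-) males of the C57BL/6 strain, at about 70 weeks of age, with no other treatment. Each library came from a different mouse, so p-values measure the spread between mice of these groups. The KO is constitutive, and in a whole hemisphere fewer cells of a type cannot be told apart from less RNA per cell.

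The libraries held 42297150 to 93557948 counts on genes. Bahd1 itself had 844 to 1383 counts in the Bahd1-WT libraries and 0 to 14 in the Bahd1-KO libraries. Bahd1-KO 2 stood apart from the other libraries in many of the members, and values without it are given beside some results and together further on. Values given with the offset come from a fit that corrects each library for GC content and length, described further on. Levels are CPM (counts scaled to library sizes normalized by TMM), and fold changes are log2 of Bahd1-KO over Bahd1-WT ± standard error. A gene counted as called at an adjusted p under 0.05 with a 2-fold or larger difference in edgeR's quasi-likelihood test, adjusted by Benjamini-Hochberg over the 23975 genes that had 10 or more counts in all. Of the members, 91 entered the test, while Cox8c, a testis isoform of a complex IV subunit, had 0 counts in all 6 libraries.

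Most respiratory chain genes had higher average levels in the Bahd1-KO brains, but the KO mice differed widely among themselves and no member met the full call. Of the 91 members, 67 had a positive and 24 a negative log2 fold change, with a median of 0.44 and a range from -1.05 (Cox7b2) to 4.08 (Uqcr11). The median over all genes tested was -0.06, and over the 16934 protein-coding genes tested 0.03. 28 members were higher and 1 was lower by at least 2-fold. Over all 23975 genes tested, 11172 log2 fold changes were positive and 12803 negative. Of all genes tested, 5198 differed by at least 2-fold, and 3473 of these were higher.

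The number of members past a threshold depended on the test. Under the full call, edgeR found 0 members, against 0.00834% of all genes tested. DESeq2's Wald test with a normal prior, on the same thresholds, called 27 members higher (background 9.61%) and 0 lower (background 0.909%), and without the prior 27 higher (background 10.5%) and 1 lower (background 1.06%). With library size alone as the scaling, edgeR called 24 higher (background 7.88%) and 0 lower (background 0.492%), and without Bahd1-KO 1 it called 29 higher (background 14.6%) and 0 lower (background 2.26%). When genes with a single count were also tested it called 27 higher (background 7.58%) and 0 lower (background 0.863%). At an unadjusted p under 0.05 edgeR had 42 members higher (background 19.9%) and 2 lower (background 12%). At an adjusted p under 0.1, the looser level used below, 36 were higher (39.6% of members, against 14.7% of all genes and 19.7% of protein-coding genes) and 2 were lower (background 4.77%). This count of 38 fell to 0 when Bahd1-WT 1, 2 or 3 or Bahd1-KO 3 was left out, was 32 without Bahd1-KO 2 and 54 without Bahd1-KO 1. In 42 members every Bahd1-KO library lay above every Bahd1-WT library (background 20.6%), and in 2 every one lay below (background 19.3%). Many genes share an adjusted p because the adjustment gives ties.

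**Figure D1:**
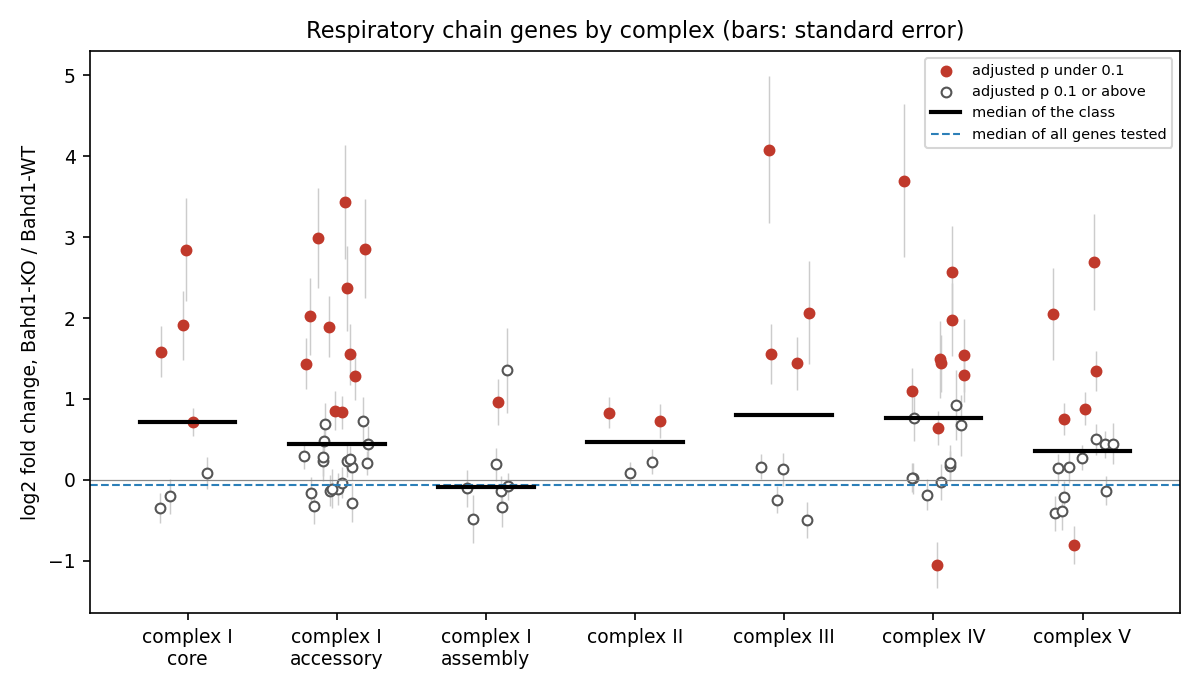
The plot gives the log2 fold change (Bahd1-KO over Bahd1-WT, n = 3 mice each) of the 91 members tested, by class, with standard errors. Filled points have an adjusted p under 0.1, black bars are class medians and the dashed line is the median of all genes tested, -0.06. All class medians but that of the complex I assembly factors, -0.09, lie above that line.

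The core subunits of complex I split into a set of higher members and a set that did not pass. Of the 7, 4 were higher at an adjusted p under 0.1 (background 14.7%). Ndufs7, which carries the last iron-sulfur cluster before ubiquinone, was at 6.06, 3.24 and 4.85 CPM in the Bahd1-WT and 11.6, 72.0 and 18.3 CPM in the Bahd1-KO brains (replicates 1, 2 and 3, an order kept throughout). The groups did not overlap, and Bahd1-KO 2 held a level well above the other KO brains. The log2 fold change of Ndufs7 was 2.85 ± 0.64 (adjusted p = 0.0634), and with the offset it was 1.39 (adjusted p = 0.0737). Ndufs8, another iron-sulfur subunit of the arm that leads electrons to ubiquinone, was at 16.1, 10.2 and 13.2 CPM in the WT and 27.3, 87.8 and 33.3 CPM in the KO brains, 1.91 ± 0.43 on the log2 scale (adjusted p = 0.0634). For Ndufv1, which binds NADH and flavin, levels were 43.9, 29.3 and 36.7 CPM in the WT and 73.8, 168 and 87.6 CPM in the KO brains, 1.59 ± 0.32 on the log2 scale (adjusted p = 0.0634). In both genes the lowest KO brain was above the highest WT brain.

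Core subunits that did not pass overlapped between genotypes. Ndufs1, the largest iron-sulfur subunit, was at 237, 279 and 270.4 CPM in the Bahd1-WT and 257, 163 and 198 CPM in the Bahd1-KO brains. There Bahd1-KO 2 was the lowest of all libraries, while Bahd1-KO 1 lay inside the WT range. The log2 fold changes of Ndufs1, Ndufv2 and Ndufs3 were -0.35 ± 0.19, -0.21 ± 0.22 and 0.08 ± 0.20, with adjusted p of 0.231, 0.527 and 0.800. Ndufv1 and Ndufv2, which pair in the NADH-binding module, thus had log2 fold changes of opposite sign, although only that of Ndufv1 passed. With the offset both were positive and at an adjusted p under 0.1, Ndufv1 at 0.73 and Ndufv2 at 0.35 (adjusted p = 0.0737 and 0.0971).

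The 29 accessory subunits of complex I surround the core and are needed for its assembly or stability. Their median log2 fold change was 0.44. At an adjusted p under 0.1, 11 were higher (background 14.7%) and 0 lower (background 4.77%). The highest were Ndufa11, a membrane subunit, and Ndufb7, which lies on the intermembrane side. Ndufa11 was at 5.84, 2.14 and 1.57 CPM in the Bahd1-WT and 12.8, 67.7 and 23.2 CPM in the Bahd1-KO brains. Its lowest KO brain was about double the level of Bahd1-WT 1, and its levels differed several-fold among the KO mice. The log2 fold change of Ndufa11 was 3.44 ± 0.70 (adjusted p = 0.0634), and that of Ndufb7 was 2.99 ± 0.62 (adjusted p = 0.0634). Ndufa13 (2.86 ± 0.61), Ndufa7 (2.37 ± 0.53), Ndufa2 (2.02 ± 0.48) and Ndufa8 (1.89 ± 0.37) followed on the log2 scale, outside the naming rule and chosen after their values were seen.

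At the other end, Ndufab1, the mitochondrial acyl carrier protein that is also part of complex I, was at 34.4, 40.2 and 37.0 CPM in the WT and 39.6, 23.2 and 26.2 CPM in the KO brains. Its Bahd1-KO 1 brain was inside the WT range and the other KO brains were below it. The log2 fold change was -0.33 ± 0.22 (adjusted p = 0.325). Ndufs4, whose loss in mice gives a fatal encephalopathy, had -0.16 ± 0.20 (adjusted p = 0.593). These genes and 16 others of the 29, of which Ndufb11 and Ndufv3 had an unadjusted p under 0.05, did not pass.

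The 8 complex I assembly factors, which build the enzyme but are not part of it, had a median of -0.09, which turned to 0.18 with the offset, and 1 of 8 was higher at an adjusted p under 0.1, where 14.7% of all genes were. That was Ndufaf3, an early assembly factor, at 9.32, 7.89 and 8.60 CPM in the WT and 13.3, 24.5 and 12.5 CPM in the KO brains (0.96 ± 0.28, adjusted p = 0.0702), and with the offset it did not pass (0.17, adjusted p = 0.507). Ndufaf8 was at 1.06, 1.10 and 1.49 CPM in the WT and 1.86, 6.03 and 1.35 CPM in the KO brains. Bahd1-KO 2 alone was far above the rest in Ndufaf8, and Bahd1-KO 3 lay inside the WT range (1.35 ± 0.52, adjusted p = 0.122). Ndufaf4 and Ndufaf1 had the lowest values, -0.49 ± 0.29 (adjusted p = 0.272) and -0.34 ± 0.24 (adjusted p = 0.345). Ndufaf1 lies 730.9 kb from Bahd1 on chromosome 2 and was the member nearest to it.

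Complex II, which has no subunit from mitochondrial DNA, was the class whose summed level spread least among the Bahd1-KO mice. Sdhc, a membrane anchor, was at 39.7, 32.3 and 38.6 CPM in the WT and 53.6, 80.0 and 62.6 CPM in the KO brains (0.83 ± 0.19, adjusted p = 0.0634), and Sdhb, the iron-sulfur subunit, at 63.8, 58.0 and 69.0 CPM in the WT and 92.8, 138 and 83.9 CPM in the KO brains (0.72 ± 0.21, adjusted p = 0.0696). Both genes were higher in each KO brain than in any WT brain. The flavoprotein subunit Sdha was the most abundant per length of the class and nearly even across the 6 mice, at 483, 476 and 486 CPM in the WT and 531, 493 and 509 CPM in the KO brains, although each KO brain was slightly above each WT brain. The log2 fold changes were 0.09 ± 0.13 for Sdha (adjusted p = 0.680) and 0.22 ± 0.15 for the other anchor, Sdhd (adjusted p = 0.327). With the offset Sdhc still passed, Sdhb did not (0.35, adjusted p = 0.109), and Sdha did (0.30, adjusted p = 0.0893).

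Complex III held the member with the highest log2 fold change, Uqcr11, a small accessory subunit. Uqcr11 was at 3.76, 1.13 and 1.70 CPM in the Bahd1-WT and 7.01, 87.3 and 18.0 CPM in the Bahd1-KO brains. Each KO brain was above each WT brain, but within the KO group Bahd1-KO 2 exceeded Bahd1-KO 1 by far more than the WT brains differed. The log2 fold change was 4.08 ± 0.91 (adjusted p = 0.0634). Uqcrq, a ubiquinone-binding small subunit, was at 9.66, 8.02 and 11.3 CPM in the WT and 14.9, 89.1 and 17.0 CPM in the KO brains (2.07 ± 0.64, adjusted p = 0.0774). The difference in Uqcrq was mostly that of Bahd1-KO 2, and without this library its log2 fold change was 0.72 (adjusted p = 0.0693). At the low end was Uqcrb, another small subunit, at 74.8, 90.8 and 77.0 CPM in the WT and 78.2, 46.2 and 47.9 CPM in the KO brains (-0.49 ± 0.23, adjusted p = 0.169). Its Bahd1-KO 1 brain lay inside the WT range and the other KO brains below it. Uqcrc1 and Uqcrc2, the core proteins that pair in this complex, had 1.44 ± 0.33 (adjusted p = 0.0634) and -0.24 ± 0.16 (adjusted p = 0.321). With the offset both were positive, at 1.14 and 0.21, and Uqcrc2 did not pass (adjusted p = 0.232).

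The coding sequences of the highest and the lowest member of complex III are shown because base composition moved with the fold changes across the members, as described further on. They were read from GENCODE M21 transcripts on GRCm38, in full without the stop codon for Uqcr11 and for the first 300 bases of Uqcrb, on the minus strand of the genes at chr10:80402997-80406830 (Uqcr11) and chr13:66900617-66905378 (Uqcrb). Capitals mark G or C at the third position of a codon. These were 44 of 56 codons in Uqcr11, whose coding sequence had 60.7% GC, and 41 of 100 codons in this stretch of Uqcrb, whose whole coding sequence had 42.9% GC.
Uqcr11: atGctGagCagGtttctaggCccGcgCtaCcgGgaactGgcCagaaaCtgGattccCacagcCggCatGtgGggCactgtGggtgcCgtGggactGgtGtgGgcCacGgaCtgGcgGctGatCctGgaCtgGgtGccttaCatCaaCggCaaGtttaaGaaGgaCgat
Uqcrb: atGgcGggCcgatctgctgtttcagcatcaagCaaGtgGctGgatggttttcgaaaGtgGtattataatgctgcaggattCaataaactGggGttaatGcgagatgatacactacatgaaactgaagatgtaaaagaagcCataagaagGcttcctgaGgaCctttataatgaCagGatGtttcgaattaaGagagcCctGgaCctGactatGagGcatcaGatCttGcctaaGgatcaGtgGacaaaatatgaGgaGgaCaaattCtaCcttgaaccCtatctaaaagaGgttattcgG

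Over the 19 members of complex IV that were tested the median was 0.77. At an adjusted p under 0.1, 9 were higher (background 14.7%) and 1 lower (background 4.77%). The median of complex IV was 0.42 without Bahd1-KO 2 and 0.21 to 0.35 with the offsets for base composition described further on. Among its well expressed members, Cox6a1 and Cox4i1, both widely expressed isoforms of subunits around the catalytic core, were highest. Cox4i1, which joins the catalytic subunit early in assembly, was at 138, 84.5 and 130.5 CPM in the WT and 210.4, 511 and 234 CPM in the KO brains (1.44 ± 0.35, adjusted p = 0.0634). With the offset it was at 0.35 and did not pass (adjusted p = 0.149), against 1.05 with an offset from coding sequences. Cox6a1 was at 64.3, 41.8 and 69.0 CPM in the WT and 94.1, 311 and 86.1 CPM in the KO brains (1.49 ± 0.48, adjusted p = 0.0839). It did not pass without Bahd1-KO 2 (0.62, adjusted p = 0.102) and had a negative value of -0.30 with the offset. In both, Bahd1-KO 1 and 3 were close to each other and Bahd1-KO 2 was well above them. Cox6c and Cox5a were the lowest, with -0.19 ± 0.19 (adjusted p = 0.520) and -0.03 ± 0.22 (adjusted p = 0.937). The KO brains of Cox5a spanned the WT range, and those of Cox6c lay inside or below it.

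Several complex IV subunits exist as a widely expressed isoform and as one restricted to muscle, lung or testis, and the restricted ones were at low levels in these brains. Cox6a2, the heart and skeletal muscle isoform, was at 0.361, 0.113 and 0.164 CPM in the WT and 0.552, 6.88 and 1.02 CPM in the KO brains (3.70 ± 0.94, adjusted p = 0.0635), and Cox8b, also of muscle, at 0.0983, 0.0648 and 0.0409 CPM in the WT and 0.184, 0.672 and 0.363 CPM in the KO brains (2.57 ± 0.56, adjusted p = 0.0634). The KO brains of both lay above all WT brains, and Bahd1-KO 2 was the highest. The testis isoform Cox6b2 was at 0.863, 0.340 and 0.355 CPM in the WT and 1.29, 2.98 and 1.93 CPM in the KO brains (1.98 ± 0.45, adjusted p = 0.0634). The testis isoform Cox7b2 went the other way, at 0.601, 0.794 and 0.791 CPM in the WT and 0.276, 0.368 and 0.397 CPM in the KO brains (-1.05 ± 0.28, adjusted p = 0.0647), with all KO brains below all WT brains. Without Bahd1-KO 2 its value was -1.09 but no longer passed (adjusted p = 0.104). Cox4i2, known from lung and from pericytes, had 1.29 ± 0.33 (adjusted p = 0.0634), Ndufa4l2, a hypoxia-induced relative of the complex IV subunit Ndufa4, 1.54 ± 0.45 (adjusted p = 0.0705), and the muscle isoform Cox7a1 0.92 ± 0.44 (adjusted p = 0.178). Without Bahd1-KO 2 Ndufa4l2 was at 0.85 and did not pass (adjusted p = 0.134), and with the offset Cox7b2, Cox4i2 and Ndufa4l2 did not pass (adjusted p = 0.556, 0.479 and 0.928). Of the widely expressed partners, Cox7a2 had 0.64 ± 0.21 (adjusted p = 0.0903), Cox8a 0.77 ± 0.29 (adjusted p = 0.114), Cox6b1 0.17 ± 0.19 (adjusted p = 0.536) and Ndufa4 0.02 ± 0.19 (adjusted p = 0.961). With the offset Cox7a2 was at 0.39 and did not pass (adjusted p = 0.133).

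Per length, the restricted isoforms stayed a small part of each pair. On the scale of CPM per kb of transcript, the share of Cox6a2 in the sum of Cox6a1 and Cox6a2 was 0.469%, 0.227% and 0.199% in the Bahd1-WT and 0.490%, 1.82% and 0.984% in the Bahd1-KO brains. The shares of Cox6b2 and Cox8b also did not overlap and were higher in the KO brains, and that of Cox7b2 was lower, from 0.865%, 0.990% and 0.968% to 0.296%, 0.474% and 0.620%. The shares of Cox4i2, Cox7a1 and Ndufa4l2 overlapped between genotypes. With 3 mice against 3, an exact two-sided permutation test of a share cannot go below p = 0.1. Markers of striated muscle were read beside the muscle isoforms. All 10 markers had a positive log2 fold change (median 1.52), 6 at an adjusted p under 0.1 (60%, against 14.7% of all genes). With the offset all 10 were positive (median 1.03) and 3 were at that level (30%, against 7.09% of all genes). Their summed level was 3.79 to 6.28 CPM in the Bahd1-WT and 7.52 to 32.7 CPM in the Bahd1-KO brains, highest in Bahd1-KO 2. Creatine kinase M (Ckm), a defining muscle gene, had 0 to 1 counts in the WT and 0, 109 and 14 in the KO libraries. Mural cell markers, for Cox4i2 and Ndufa4l2, summed to 249 to 301 CPM in the WT and 230 to 274 CPM in the KO brains, while their median log2 fold change was 0.50, with 4 of 6 positive and 1 higher at an adjusted p under 0.1, and with the offset described further on 6 of 6 were positive. The part of either in the isoform levels was not tested.

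**Figure D2:**
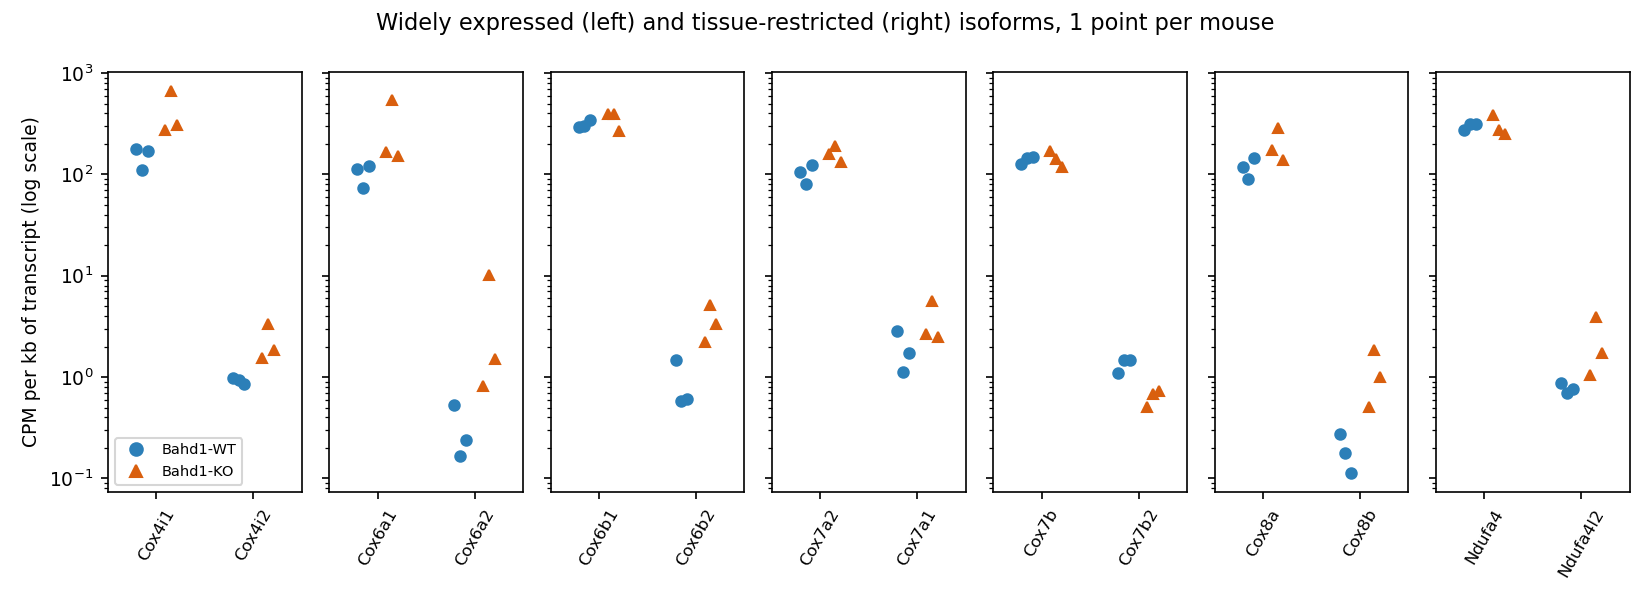
Each point is 1 mouse (circles Bahd1-WT, triangles Bahd1-KO), and the log-scaled axis gives CPM per kb of the principal transcript for pairs of a widely expressed isoform (left) and a tissue-restricted one (right). The restricted isoforms lie far below their partners in every mouse, and only Cox7b2 lies lower in all Bahd1-KO than in all Bahd1-WT mice.

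In complex V the median was 0.36, with 5 of 16 members higher (background 14.7%) and 1 lower (background 4.77%) at an adjusted p under 0.1. Atp5d, the delta subunit of the central stalk, was at 24.3, 11.2 and 14.3 CPM in the WT and 41.9, 216 and 64.7 CPM in the KO brains (2.70 ± 0.59, adjusted p = 0.0634). Its KO brains were all above the WT brains and again most so in Bahd1-KO 2. Atp5k, subunit e, through which the enzyme forms dimers, was at 29.1, 19.1 and 18.3 CPM in the WT and 52.5, 71.4 and 45.0 CPM in the KO brains, with less spread among the KO brains (1.34 ± 0.25, adjusted p = 0.0634). With the offset Atp5k was at 0.49 and did not pass (adjusted p = 0.120). Atp5b, the catalytic beta subunit and the member of highest level per length, was at 885, 831 and 1002 CPM in the WT and 1193, 1402 and 1085 CPM in the KO brains (0.44 ± 0.16, adjusted p = 0.114). Although all its KO brains were above the WT brains, it did not pass, but with the offset it did (0.36, adjusted p = 0.0888). Atp5j, coupling factor 6, and Atp5s were lowest among members of at least 10 CPM, with -0.42 ± 0.22 (adjusted p = 0.219) and -0.39 ± 0.23 (adjusted p = 0.265).

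The c subunit of complex V, of which a ring turns in the membrane, is encoded by 3 genes, and the stretches that encode the mature protein are shown because they differ in bases but not in residues. The last 75 codons of Atp5g1, Atp5g2 and Atp5g3 encode the same residues, with 0 differences in each pair, while 34 to 48 of the 225 bases differ, 32 to 44 of them at the third position of a codon. They are given below from GENCODE M21 transcripts on GRCm38, all from the minus strand, with capitals for G or C at the third position of a codon. The genes are at chr11:96068852-96075670, chr15:102662864-102672352 and chr2:73908447-73911326 in this order. The third position is G or C in 47, 47 and 29 of 75 codons.
Atp5g1: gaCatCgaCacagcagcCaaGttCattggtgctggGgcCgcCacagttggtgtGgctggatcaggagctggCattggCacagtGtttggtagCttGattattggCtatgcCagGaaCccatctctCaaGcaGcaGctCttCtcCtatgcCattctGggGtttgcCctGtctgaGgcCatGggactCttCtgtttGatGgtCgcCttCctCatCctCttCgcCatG
Atp5g2: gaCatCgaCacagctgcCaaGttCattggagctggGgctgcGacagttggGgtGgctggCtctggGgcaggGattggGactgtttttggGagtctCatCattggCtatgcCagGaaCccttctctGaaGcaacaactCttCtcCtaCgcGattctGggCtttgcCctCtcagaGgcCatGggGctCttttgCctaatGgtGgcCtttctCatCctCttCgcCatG
Atp5g3: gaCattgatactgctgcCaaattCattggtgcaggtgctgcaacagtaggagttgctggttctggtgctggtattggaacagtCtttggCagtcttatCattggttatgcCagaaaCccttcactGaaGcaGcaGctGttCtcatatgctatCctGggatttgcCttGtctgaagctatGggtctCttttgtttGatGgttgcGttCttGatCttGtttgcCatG

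Of these 3 genes Atp5g3 gave most of the transcript, and the other two, richer in GC, were the ones at an adjusted p under 0.1. Atp5g1 was at 23.5, 23.7 and 24.7 CPM in the WT and 36.0, 50.8 and 34.2 CPM in the KO brains (0.75 ± 0.19, adjusted p = 0.0638), with no overlap. For Atp5g2 the levels were 1.66, 1.30 and 0.941 CPM in the WT and 1.77, 10.3 and 3.99 CPM in the KO brains (2.05 ± 0.57, adjusted p = 0.0664), and its Bahd1-KO 1 brain was barely above Bahd1-WT 1. Without Bahd1-KO 2 Atp5g2 was at 1.16 and did not pass (adjusted p = 0.102), nor did it with the offset (adjusted p = 0.576). Atp5g3 was at 111, 136 and 130.5 CPM in the WT and 156, 159.9 and 104 CPM in the KO brains (0.16 ± 0.20, adjusted p = 0.601), and its KO brains spanned the WT range. The share of Atp5g3 in the summed CPM per kb of the 3 genes was 95.5% to 96.6% in the WT and 90.0% to 95.6% in the KO brains. Atp5g2 is uncertain, since 87.4% of the 50-base windows of its transcript also occur in transcripts of other genes.

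Summed over all members, nuclear respiratory chain transcripts made up 7565, 7728 and 8323 CPM in the Bahd1-WT and 9804, 11594 and 8028 CPM in the Bahd1-KO brains, a mean of 7872 ± 399 against 9809 ± 1783 (SD, n = 3). Bahd1-KO 3 lay inside the WT range and the other KO brains above it. The class sums of complex II did not overlap, at 652, 629 and 664 against 764, 787 and 725 CPM, with means of 648 ± 17.4 and 758 ± 31.3 (SD, n = 3). Those of the complex I accessory subunits did not overlap either, at 1265, 1264 and 1359 against 1700.0, 2294 and 1383 CPM, with Bahd1-KO 3 barely above the highest WT brain. The sums of each other class overlapped. Per length of transcript the members of highest level by the mean of all 6 libraries were Atp5b, at 473 ± 45.7 CPM per kb in the WT and 640.2 ± 83.9 in the KO brains, Uqcrh, at 414 ± 64.7 and 453 ± 95.6, and Cox6b1, at 312 ± 27.6 and 351 ± 72.0 (SD, n = 3). Within the KO brains the values of Uqcrh and Cox6b1 overlap within their SD, and Cox4i1, at 417 ± 219, lay between them. Among members of at least 1 CPM the lowest by the mean of all 6 libraries were Ndufa4l2, Cox4i2 and Cox6b2, at 1.51, 1.58 and 2.21 CPM per kb. In the WT brains alone these were at 0.777 ± 0.0932, 0.923 ± 0.0643 and 0.888 ± 0.509 CPM per kb, and Cox6a2 was lower, at 0.313 ± 0.192 (SD, n = 3). The sum of the assembly factors was 215 ± 18.6 CPM in the WT and 193 ± 43.4 in the KO brains.

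The subunits encoded by mitochondrial DNA went the other way, a direction that an offset for base composition removed. Of the 13, 8 entered the test, all with a negative log2 fold change (median -0.75), and 7 had an adjusted p under 0.1 (background 4.77%). With the offset for base composition described further on, 4 of the 8 were positive and 4 negative, and 0 had an adjusted p under 0.1. In mt-Co2, 1 of these 7, the difference rested on Bahd1-WT 1 alone, which held 121 counts against at most 2 in the other libraries. The summed level was 125249, 148084 and 114190 CPM in the Bahd1-WT and 82209, 62173 and 87996 CPM in the Bahd1-KO brains, with no overlap. The subunits mt-Co2, mt-Co3, mt-Atp6, mt-Atp8, mt-Nd3 and mt-Nd4l had at most 121 counts in a library, against 340926 to 996133 for mt-Nd4, so the sum hardly covers them.

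**Figure D3:**
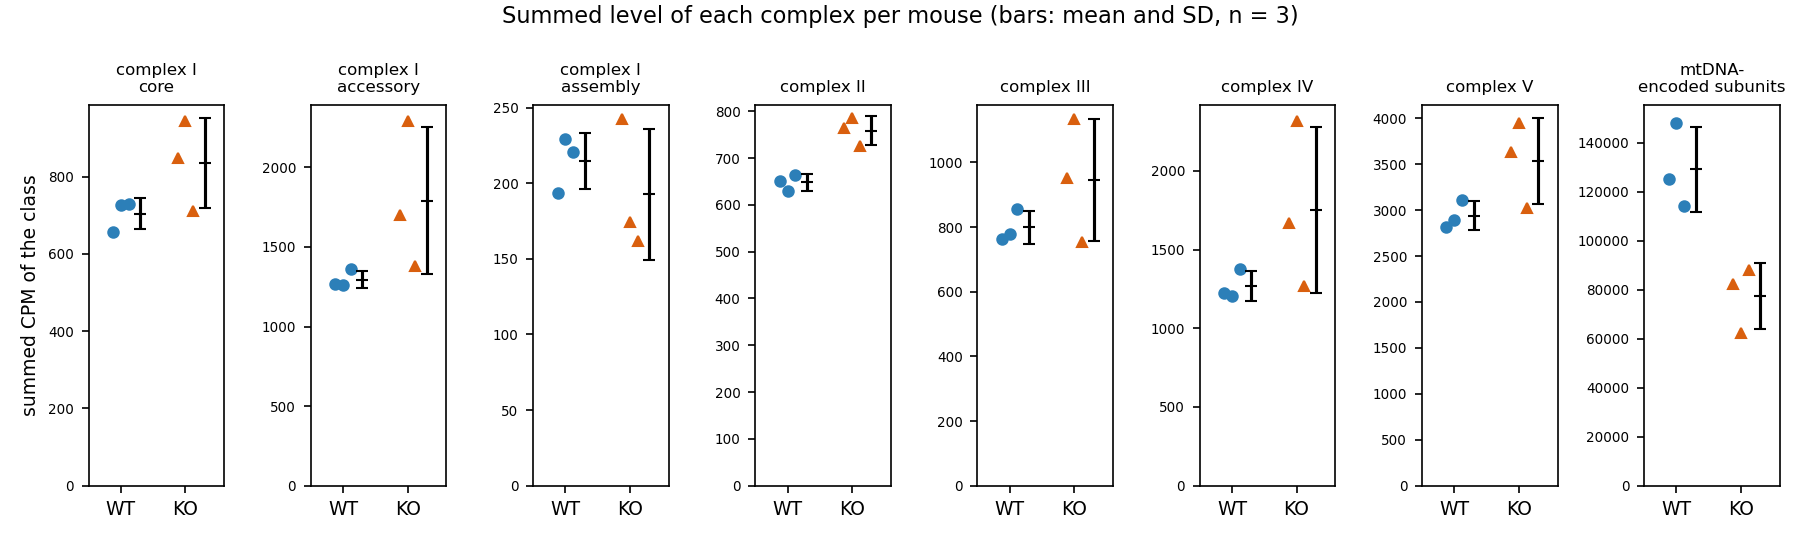
Each panel gives the summed CPM of a class per mouse (circles Bahd1-WT, triangles Bahd1-KO), on axes that start at 0, with the mean and SD (n = 3) beside the points. The genotypes do not overlap in the complex I accessory subunits and complex II, where the KO brains are higher, nor in the subunits of mitochondrial DNA, where they are lower.

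The fold changes of the members followed the base composition of their coding sequences. Over the 91 members the log2 fold change and the GC content of the coding sequence had a Spearman rho of 0.82 and a Pearson r of 0.75, a description over genes of the same 6 libraries. Over 16865 protein-coding genes with a coding sequence rho was 0.72, so the relation was not one of these genes alone. Split by coding GC, the 30 members lowest in GC had a median of -0.12 (2 higher and 2 lower at an adjusted p under 0.1), the 31 in the middle 0.44 (12 higher), and the 30 highest 1.52 (22 higher). Uqcr11, Cox6a2 and Ndufa11 belong to the last set, and Uqcrb and Cox7b2 to the first. The length of the transcript had a weaker relation (rho -0.32).

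The same gradient separated brains of the same genotype. Over 89 members of at least 1 CPM, rho between coding GC and the log2 ratio of 2 libraries was 0.75 for Bahd1-WT 1 over 2, 0.54 for Bahd1-WT 3 over 2, 0.82 for Bahd1-KO 2 over 1 and 0.66 for Bahd1-KO 3 over 1. Bahd1-KO 2 was the highest of the 6 libraries in 57 members and Bahd1-KO 1 in 21. The lowest was Bahd1-WT 2 in 40 members and Bahd1-KO 3 in 27. Relative to the mean of Bahd1-KO 1 and 3, Bahd1-KO 2 ranged from 0.529 times to 8.76 times. The median SD of log2 CPM over the members was 0.169 in the WT and 0.414 in the KO brains, and 85 of 91 members had more spread in the KO. A difference between libraries in how base composition affects yield cannot be told apart here from a difference in the RNA of the mice.

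**Figure D4:**
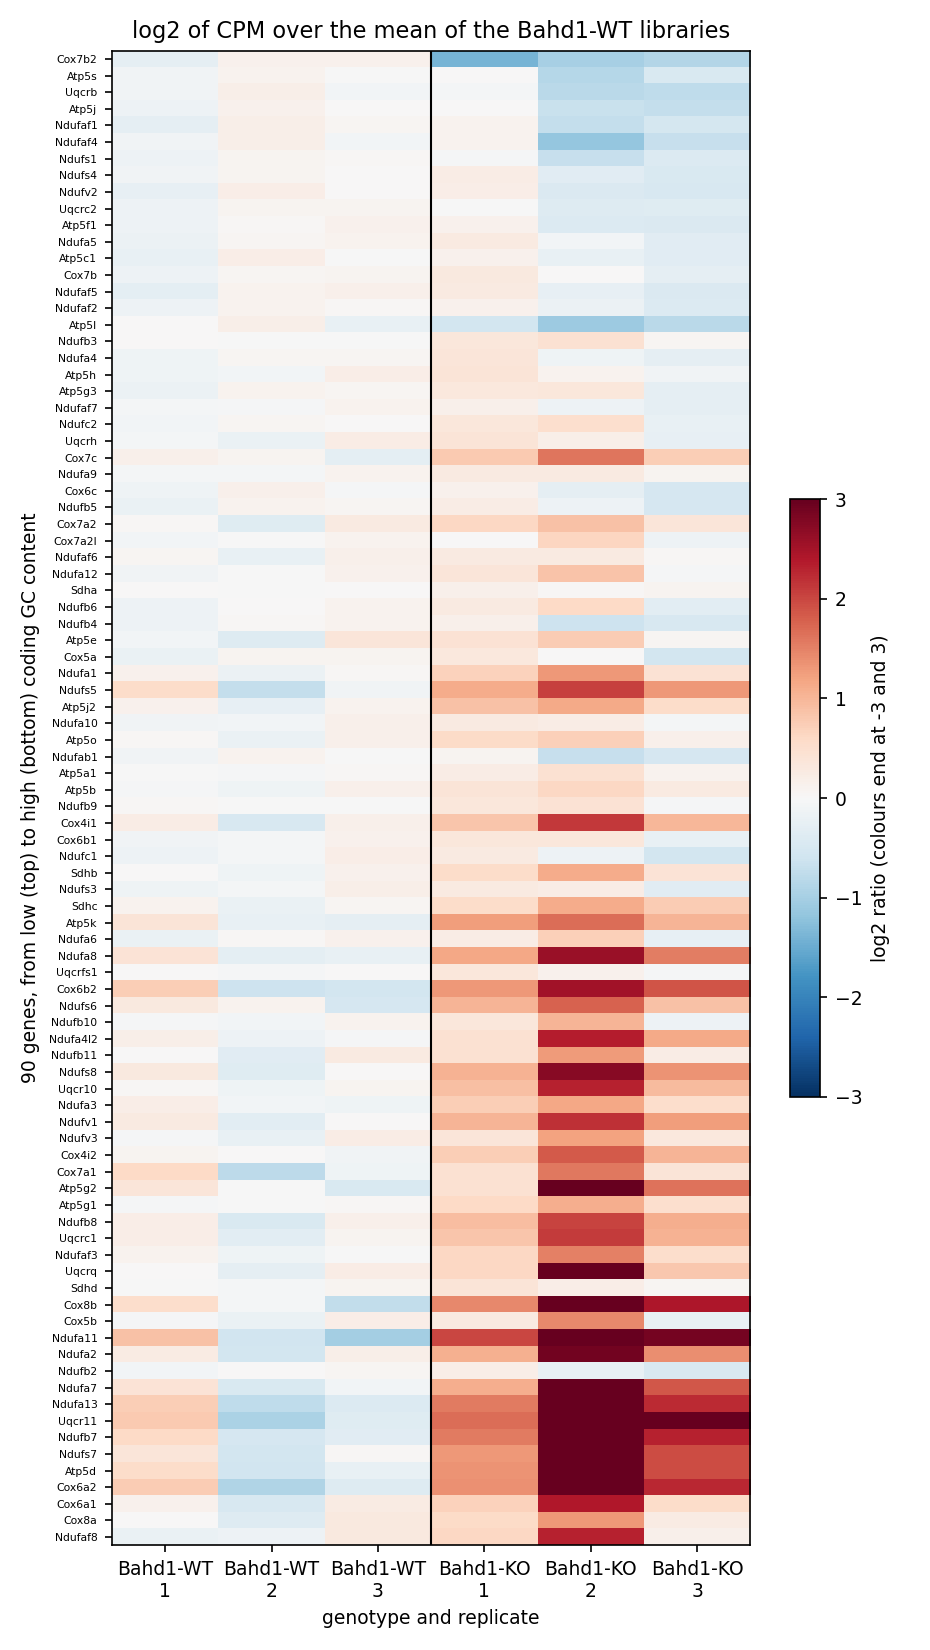
Colours give log2 of the CPM in each mouse over the mean of the 3 Bahd1-WT mice for 90 members, ordered by coding GC content from low at the top to high at the bottom. Red deepens toward the bottom in all Bahd1-KO columns and most in Bahd1-KO 2, while GC-poor members at the top are mostly blue in Bahd1-KO 2 and 3 and near white in Bahd1-KO 1.

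To see what remained beyond base composition, each library was given an offset for GC content and length, fitted over all expressed genes. With it the median of the members was 0.35, against 0.09 over all genes tested, and 76 of 91 had a positive log2 fold change. Of all 23975 genes tested, 14428 were positive with the offset. Of the 9726 protein-coding genes of at least 10 CPM, 7087 were (median 0.13). At an adjusted p under 0.1, 36 members were higher (background 7.09%) and 0 lower (background 1.51%). Of those 9726 genes, 1208 were higher and 151 lower at that level. Of the 38 members at that level without the offset, 26 kept it and 12 did not, among them Cox4i1, Cox6a1, Atp5k, Ndufaf3 and Sdhb, while 10 others reached it, among them Atp5b, Sdha and Ndufv2. The offset moved the lowest GC set from -0.12 to 0.26 and the highest from 1.52 to 1.00, and rho with coding GC was still 0.44. Built on coding sequences instead, an alternative added after the data were seen, the offset gave a median of 0.18 against 0.11 over all genes, with 25 members higher (background 7.18%) and 1 lower (background 1.67%), all of them among the 38. Over the protein-coding genes tested this median was 0.14, and over those of at least 10 CPM 0.16, close to that of the members. By class, the offset took the median from 0.77 to 0.35 for complex IV, from 0.80 to 0.61 for complex III, from 0.71 to 0.35 for the complex I core, from 0.44 to 0.38 for its accessory subunits, from -0.09 to 0.18 for its assembly factors, from 0.47 to 0.32 for complex II and from 0.36 to 0.37 for complex V. With coding sequences these medians were 0.21, 0.42, 0.48, 0.18, 0.09, 0.35 and 0.20 in the same order. The size of what remained thus depended on how base composition was measured.

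Single genes responded to the offset in different ways, and for several the coding-sequence version gave another size. Uqcr11 went from 4.08 to 2.35, Ndufb7 from 2.99 to 2.54 and Cox6a2 from 3.70 to 3.12, and with the coding-sequence version they were at 2.55, 1.64 and 2.20. Ndufs7 went from 2.85 to 1.39 and Ndufa13 from 2.86 to 1.37 (1.47 and 1.72 with coding sequences). Sdhc went from 0.83 to 1.03 and Atp5g1 from 0.75 to 1.12 (0.78 and 0.38 with coding sequences). By contrast Cox6a1, Cox8a and Ndufs3 took a negative sign, with -0.30, -0.45 and -0.33, but with coding sequences Cox6a1 was positive at 0.21, while Cox8a and Ndufs3 were at -0.33 and -0.23. Atp5g2 went from 2.05 to 0.27, Cox4i2 from 1.29 to 0.27 and Ndufa4l2 from 1.54 to 0.04, against 1.10, 0.50 and 0.93 with coding sequences. Of the members with a negative value, Uqcrb went from -0.49 to 0.01 and Cox7b2 from -1.05 to -0.39, and neither passed with the offset. With coding sequences they were at -0.22 and -0.61. For the subunits of mitochondrial DNA the median went from -0.75 to 0.00.

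**Figure D5:**
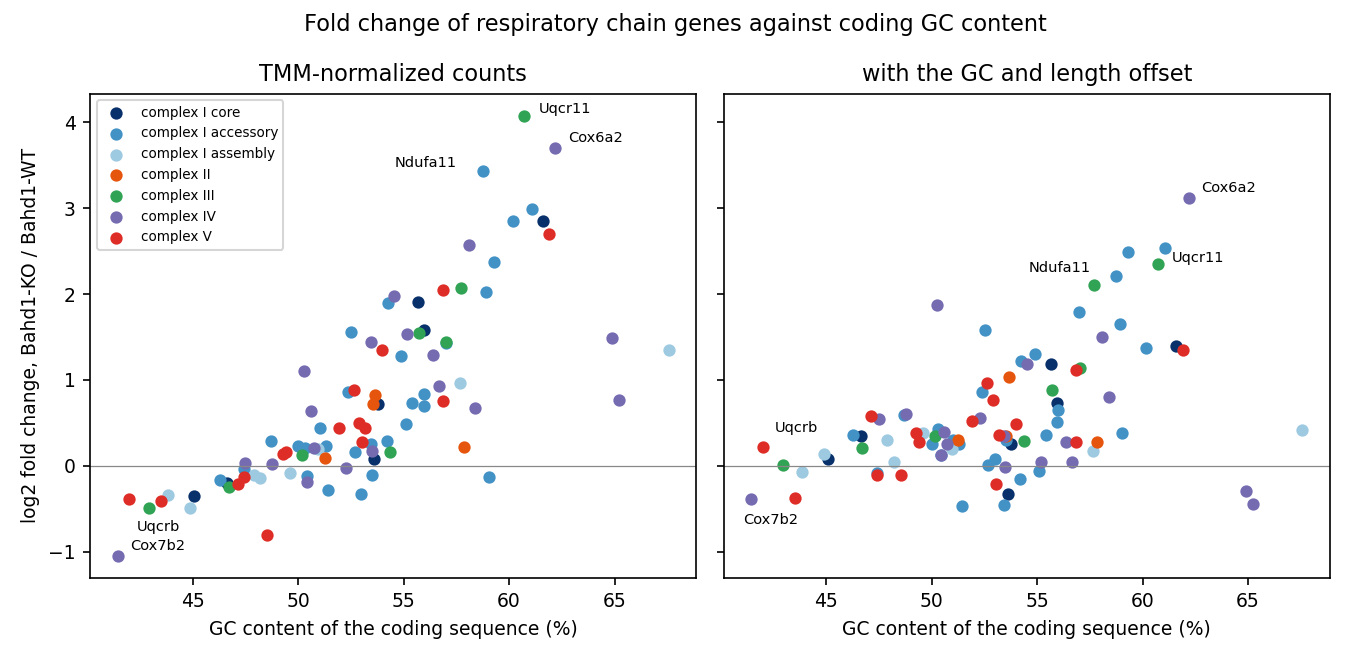
Each point is a member, with the GC content of its coding sequence in percent on the horizontal axis and the log2 fold change (Bahd1-KO over Bahd1-WT) on the vertical axis, without (left) and with (right) the offset for GC content and length. Spearman's rho is 0.82 on the left and 0.44 on the right, and most GC-poor members move to or above 0.

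Without Bahd1-KO 2 the median of the members was 0.20, against -0.05 over all genes, and 32 members were higher at an adjusted p under 0.1 (background 8.94%) and 0 lower (background 2.27%), with log2 fold changes of 0.47 to 2.51. The class median went from 0.44 to 0.18 for the complex I accessory subunits, from 0.80 to 0.45 for complex III, from 0.77 to 0.42 for complex IV and from 0.36 to 0.21 for complex V. Of the 57 members that were highest in Bahd1-KO 2, all with a positive log2 fold change, 55 were positive without it, and Ndufb6 (-0.0059) and Cox7a2l (-0.07) were not. Of the 38 members at an adjusted p under 0.1, 18 had a log2 fold change that moved by over 1.5 times and 6 no longer passed (Atp5g2, Atp5l, Cox6a1, Cox7a2, Cox7b2 and Ndufa4l2). Leaving out any other library moved the log2 fold change of 0 of the 38 by that much. Among members with large differences, Ndufs7 was at 1.67, Ndufa11 at 2.51, Uqcr11 at 2.51, Ndufb7 at 1.98, Ndufs8 at 1.20 and Atp5d at 1.69, all with an adjusted p under 0.1. Cox4i1 was at 0.92, Cox6a1 at 0.62 and Cox6a2 at 1.86 (adjusted p = 0.0523, 0.102 and 0.0685). With the offset and without Bahd1-KO 2, a combination added after the data were seen, 14 members were higher (background 0.786%), the median was 0.25 and 0 were lower (background 0.0825%).

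Genes that act with the chain but were not matched by name were counted from lists. Of 42 assembly factors tested, 5 were higher at an adjusted p under 0.1 and 0 lower (median 0.05), a share of 11.9% against 14.7% of all genes tested. With the offset 6 were higher and 0 lower, 14.3% against 7.09% of all genes, with 32 of 42 positive and a median of 0.20, while with coding sequences the median was -0.04, so the comparison with all genes depended on the offset. The 5 were Coa3, Higd2a and Cox10 of complex IV, Ecsit of complex I and Uqcc3 of complex III. Of 15 other subunits and electron carriers, 5 were higher (33.3%) and 1 lower (median 0.31). Cyc1, the cytochrome c1 subunit of complex III, had 1.39 ± 0.31 (adjusted p = 0.0634), and 4 ubiquinone synthesis genes (Coq6, Coq7, Coq8a and Coq9) were also higher, while Pdss1, which makes the ubiquinone side chain, was lower at -0.77 ± 0.22 (adjusted p = 0.0706). With the offset 3 of the 15 were higher (20%) and 0 lower, and Cyc1 (0.07) and Pdss1 (-0.05) did not pass. The mobile carrier Cycs was at -0.01 (adjusted p = 0.967). The 12 regulators of mitochondrial genes had 6 positive and 6 negative values and a median of -0.08, but with the offset 11 positive and 1 negative and a median of 0.30 (0.32 with coding sequences). Without the offset, 4 had all KO above (background 20.6%) and 4 all KO below all WT brains (background 19.3%). At an adjusted p under 0.1, 4 were higher (33.3%, against 14.7% of all genes) and 0 lower, and with the offset 3 were higher (25%, against 7.09%) and 0 lower. The 4 were the nuclear receptor Esrra (3.48 ± 0.70), the mitochondrial RNA polymerase Polrmt (2.36 ± 0.59), and the coactivators Ppargc1b (1.70 ± 0.51) and Pprc1 (0.98 ± 0.26). Esrra was at 3.26, 1.36 and 1.04 CPM in the Bahd1-WT and 6.62, 41.4 and 15.2 CPM in the Bahd1-KO brains. With the offset Esrra stayed at 3.55, whereas Polrmt was at 0.92.

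Markers of brain and other cell types were read beside the members. At an adjusted p under 0.1, 14.7% of all genes tested were higher and 4.77% lower. With the offset these shares were 7.09% and 1.51%. Markers of parvalbumin interneurons summed to 992 to 1184 CPM in the Bahd1-WT and 1146 to 1266 CPM in the Bahd1-KO brains, with 1 of 5 (20%) higher at an adjusted p under 0.1. The median log2 fold change of neuronal markers was 0.11, with 2 of 7 higher (3 higher and 1 lower with the offset). Oligodendrocyte markers had a median of 0.31 with 3 of 6 higher (3 higher and 1 lower with the offset). They summed to 5060.2 to 5853 CPM in the WT and 5303, 8245 and 7039 CPM in the KO brains, highest in Bahd1-KO 2. Astrocyte markers had a median of -0.30 with 1 of 6 higher, and their sums did not overlap, at 5469.6 to 5960.1 CPM in the WT and 3461 to 5153 CPM in the KO brains, lowest in Bahd1-KO 2. With the offset the astrocyte median was 0.10 with 5 of 6 positive, and with coding sequences -0.17. Microglial and endothelial markers had medians of 0.36 and 0.29, with 2 of 6 and 1 of 5 higher, and with the offset 0 of either were higher and 1 microglial marker was lower. The lung epithelium list, of which 5 of 5 markers were lower at an adjusted p under 0.1, summed to 106, 25.3 and 2.28 CPM in the WT brains and to at most 1.41 CPM in the KO brains. Choroid plexus marker sums did not overlap, at 368, 352 and 272 CPM in the WT and 452, 1074 and 608 CPM in the KO brains. Of these 4 markers, 2 had a positive and 2 a negative log2 fold change. Red cell marker sums overlapped, at 10.2 to 14.9 CPM in the WT and 14.0 to 82.6 CPM in the KO brains. Both lists were highest in Bahd1-KO 2. The part of these cells in the levels of the members was not tested.

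Copies of these genes limit what the counts can tell. Of the 92 members, 53 shared no 50-base window with a transcript of another gene, and 14 shared at least 20% of their windows, so their counts depend on how reads with several positions were treated. These 14 include Atp5l (68.5%, shared with 13 genes), which was lower at -0.81 ± 0.23 (adjusted p = 0.0688) but at -0.10 with the offset (adjusted p = 0.779) and -0.78 with that from coding sequences, Cox7c (53.0%), which was higher at 1.10 ± 0.28 (adjusted p = 0.0634), Atp5h (50.5%) and Uqcrb (43.2%), and were named after their values were seen. With the offset Cox7c was at 1.88 (adjusted p = 0.0737), and with that from coding sequences at 1.00. Exons of 5 members overlap another gene on the same strand. Uqcrh, the hinge protein of complex III, was at 219, 196 and 265 CPM in the WT and 295, 257 and 191 CPM in the KO brains (0.13 ± 0.20, adjusted p = 0.677). Its processed pseudogene Uqcrh-ps2, no member, had 7, 2 and 8 counts in the Bahd1-WT and 109, 189 and 95 counts in the Bahd1-KO libraries. This was a log2 fold change of 4.75 ± 0.40 (adjusted p = 0.0135), and Uqcrh-ps2 is 1 of the 2 genes of the table that met the full call. It lies at chr2:119008209-119008477, 83.7 kb from the end of Bahd1.

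Promoters of the members held some short motifs at a higher share than all promoters did. RefSeq sequences on GRCm38.p6, from 250 bases before to 50 bases after the gene start, were matched for 76 members and 27025 genes, and both strands were searched for exact letters. The NRF1 core CGCATGCG was in 14.5% of member promoters and in 2.07% of all, the ETS core CCGGAAG in 23.7% and 9.93%, and the YY1 core AAGATGGCG in 10.5% and 1.64%. The Sp1 box GGGCGG, in 46.1% and 38.2%, and the TATA letters TATAAA, in 9.21% and 15.7%, differed less. Median GC content was 58.4% in member promoters and 52.8% in all. This NRF1 core took the place of a longer one, cut by a letter at each end, after the shares of the longer one had been seen. A match is a string of letters and not a measured binding site.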

How the data were processed

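RNA-seq read counts per gene were taken for one hemisphere of each of 3 Bahd1-WT and 3 Bahd1-KO adult mice, grouped by their labels. The authors deposited raw counts as whole numbers, without normalization, for 53801 genes. Per the labels and the methods, reads were trimmed with cutadapt 1.11, aligned to GRCm38 and counted on exons with featureCounts 1.4.6-p3. The submitters' processing notes name STAR 2.5.0a, while the supplementary methods also name Tophat2. The table holds 0 columns of other samples. The embryonic brains and other assays of the study were not analysed here.

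Members and gene lists were chosen with earlier results of these data known. Genes that had 10 or more counts in all were tested with edgeR 4.0.16 (TMM, quasi-likelihood test, genotype only, Benjamini-Hochberg) in R 4.3.3, and CPM use TMM library sizes. DESeq2 1.42.0 was an alternative. The main fit, the fit with the offset and DESeq2 without the prior were tested on simulated data, and the other fits were not. The simulated libraries held no difference by GC content, so they cannot show how well the offset corrects one. For the offset, log2 CPM was regressed in each library on natural splines of GC content (5 degrees of freedom) and log length (3). GC content was that of the longest GENCODE M21 transcript, and length that of all exons of the gene joined. Levels per length and coding sequences used the principal transcript. Depth was 42297150 to 93557948 counts, and 3 counts are 0.0315 to 0.0690 CPM, a limit for counting error only. Other alternatives were 3 scalings, 2 filters on low counts, leaving out each library, the replicate block, and offsets built on principal transcripts or coding sequences.

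Genes named in the text were the core subunits, the Sdh and Atp5g genes, the isoform pairs, Uqcrh with Uqcrh-ps2, the members of highest and lowest level per length, and in each other class the 2 highest and 2 lowest fold changes among members of at least 10 CPM (1 CPM for assembly factors). Others are named as chosen after their values were seen, or belong to the lists. An item that these rules name is not reported here.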

Additional observations from a re-analysis of the deposited data

How the results depend on the processing

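The number of members called in edgeR, 0 in the main test, was 24 on total counts alone, 27 with a filter of at least 1 count, 27 by DESeq2 with a normal prior and 28 without it, and 0 to 29 with 1 library left out (29 without Bahd1-KO 1). The number at an adjusted p under 0.1, 38, was 0 to 54 with 1 library left out, 0 with the replicate block, 0 with the offset and the block together, and 14 with the offset and Bahd1-KO 2 left out. Over the whole table, 4670 genes were at that level, and 0 to 5 without Bahd1-WT 1, 2 or 3 or Bahd1-KO 3, 2583 without Bahd1-KO 2, 9750 without Bahd1-KO 1, 9 with the block and 200 with the offset and Bahd1-KO 2 left out. The median of complex I core subunits went from 0.71 to 0.35 with the offset and 0.35 with offset and block, to 0.38 with the offset from principal transcripts and to 0.25 with the offset and without Bahd1-KO 2, and that of the assembly factors from -0.09 to 0.20 with the offset from principal transcripts. For complex IV (0.77) the median was 0.35 with the offset, 0.29 from principal transcripts and 0.21 from coding sequences. From coding sequences that of the complex I accessory subunits went from 0.44 to 0.18 and that of complex V from 0.36 to 0.20, and from principal transcripts that of complex III went from 0.80 to 0.40 and that of complex V to 0.18. The median of all members was positive in every alternative run, 0.18 to 0.62. Upper-quartile scaling moves the median of all genes from -0.06 to -0.20 and the members with it. The labels number the mice of each genotype, but same-numbered mice are different animals, and deviations of same-numbered libraries had correlations of -0.63, -0.64 and -0.14, so the numbers pair nothing. The cause of these shifts was not tested. The depth limits only genes of low counts such as Cox8c.

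Among named genes, signs turned under base composition offsets. The log2 fold changes were, with the offset, Atp5s 0.22, Cox5a 0.56, Cox6a1 -0.30, Cox6b1 -0.016, Cox6c 0.13, Cox8a -0.45, Ndufab1 0.080, Ndufaf4 0.14, Ndufs1 0.081, Ndufs3 -0.33, Ndufs4 0.35, Ndufv2 0.35, Uqcrb 0.0054 and Uqcrc2 0.21. With the offset and the block they were Atp5s 0.22, Cox5a 0.52, Cox6a1 -0.30, Cox6b1 -0.018, Cox6c 0.12, Cox8a -0.46, Ndufab1 0.067, Ndufaf4 0.13, Ndufs1 0.077, Ndufs3 -0.35, Ndufs4 0.34, Ndufv2 0.35, Uqcrb 0.0051 and Uqcrc2 0.21. From principal transcripts they were Atp5s 0.25, Cox5a 0.0084, Cox8a -0.45, Ndufab1 0.12, Ndufaf4 0.20, Ndufs1 0.10, Ndufs3 -0.33, Ndufs4 0.37, Ndufv2 0.38 and Uqcrc2 0.24. From coding sequences they were Atp5s 0.14, Cox6b1 -0.22, Cox7a1 -0.00012, Cox8a -0.33, Ndufaf1 0.082, Ndufaf4 0.068, Ndufs1 0.17, Ndufs3 -0.23, Ndufs4 0.18, Ndufv2 0.13, Sdhd -0.51 and Uqcrc2 0.12. With the offset and Bahd1-KO 2 left out they were Atp5s 0.22, Cox5a 0.29, Cox6a1 -0.35, Cox6b1 -0.023, Cox6c 0.038, Cox7a1 -0.068, Cox8a -0.34, Ndufa4l2 -0.029, Ndufab1 0.085, Ndufaf4 0.19, Ndufaf8 -0.10, Ndufs1 0.075, Ndufs3 -0.29, Ndufs4 0.24, Ndufv2 0.25 and Uqcrc2 0.11. Other settings turned Ndufa4 -0.0082 with the replicate block, Cox5a 0.046 on total counts, and Ndufa4 -0.12, Ndufs3 -0.065, Sdha -0.053 and Uqcrh -0.011 with upper-quartile factors. With 1 library left out, Ndufa4 ranged from -0.17 to 0.14, Cox5a from -0.22 to 0.17 and Ndufs3 from -0.0071 to 0.26. Uqcrh-ps2 no longer passed without Bahd1-WT 1, Bahd1-WT 2 or Bahd1-KO 3. No other gene that the naming rule gives changed sign in the alternatives run. Genes of the lists were not followed through all of them, and mt-Nd4 went from -0.75 to 0.015 with the offset and to 0.078 with that from coding sequences.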
